A study of Mus musculus with 6 samples.

Results

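The CCN family comprises 6 secreted matricellular proteins, encoded in the mouse by Ccn1 (older symbol Cyr61), Ccn2 (Ctgf), Ccn3 (Nov) and Ccn4, Ccn5 and Ccn6 (Wisp1 to Wisp3). The genes were taken by family name, and all 6 of the 6 were among the 22180 genes with a probe set assigned to a single gene symbol; a probe set is a group of array probes summarised to 1 value. Where a gene had several such probe sets, the one with the highest mean over all arrays stood for it, so that probe set was chosen by its mean level over the 6 arrays and not by the comparison of the groups. The family was picked for description with earlier results of these data known, and the differences between the groups are therefore given as a description of these arrays.

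Gene expression was measured on 6 arrays in C2C12, an established mouse myoblast line that fuses into myotubes when serum is withdrawn. One group of 3 arrays came from cells that received a pooled set of small interfering RNAs (siRNAs) directed at Htt, the huntingtin gene, which is labelled a knockout although the design text and protocol describe siRNA; the other 3 came from cells transfected with scramble siRNA, and no further treatment is given for either group. The title of the series places the work in muscle differentiation in culture. The labels do not say that replicates were separate cultures, so every p-value reflects only how far these samples spread, and that spread may be technical. Neither the time after transfection nor the stage of the culture is given in the sources used here.

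CCN proteins bind integrins, heparan sulphate proteoglycans and growth factors in the matrix around a cell, and most are built from an insulin-like growth factor binding domain, a von Willebrand factor C domain, a thrombospondin repeat and a cysteine-rich C-terminal domain, which Ccn5 lacks. Ccn1 and Ccn2 are widely used reporters of the coactivators YAP and TAZ with TEAD factors, and Ccn2 is also a target of TGF-beta. Ccn3 binds Notch1 and has been described as a restraint on the differentiation of C2C12 myoblasts, Ccn4 was found as a target of Wnt signalling, and Ccn6 is known from an inherited disorder of cartilage.

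The array values are log2 values after RMA, a procedure that corrects background, gives every array the same distribution and summarises the probes of a set. They spanned 0.84 to 12.12, with array medians from 2.59 to 2.67. No filter on dim genes was applied. Htt, the target, stood at 4.49, 4.47 and 4.65 in the Htt siRNA arrays and at 5.59, 5.60 and 5.72 in the scramble arrays, with no overlap, a remaining level of 46.6% of that in scramble (95% confidence interval from 40.2 to 53.9%; adjusted p = 0.0559 in limma). Muscle genes marked the line as labelled, with 10 of 10 measured myoblast and muscle markers above 2.95, the median of all gene means, and desmin (Des) at a mean of 10.20, whereas 0 of 7 endothelial markers were above it. Of 8 macrophage and blood markers 3 were above it, of 7 adipocyte markers 2, of 7 chondrocyte and bone markers 2, and of 7 smooth muscle and pericyte markers 6, some of which, such as Acta2, myoblasts also express.

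Ccn3 was the member with the largest difference between the groups, at 2.42 times the scramble level with Htt siRNA. Its log2 values were 7.03, 6.61 and 6.97 with Htt siRNA (replicates 1, 2 and 3, the order used throughout) and 5.82, 5.17 and 5.79 with scramble. Every Htt siRNA array was above every scramble array, and the gap between the lowest of the one group and the highest of the other was 0.80. The means were 6.87 ± 0.22 and 5.59 ± 0.37 (SD, n = 3 each), and the log2 difference, Htt siRNA minus scramble, was 1.28 ± 0.19 (standard error; 95% confidence interval 0.83 to 1.73), or between 1.77 and 3.31 times the scramble level. In limma, with Benjamini-Hochberg adjustment over all 22180 genes, its adjusted p was 0.169, which did not pass the threshold of 0.05. By unadjusted p it ranked 25 of 22180 genes, and by size it ranked 15 among differences towards higher values. In RNA from whole cultures, a larger share of cells with Ccn3 RNA and more Ccn3 RNA per cell cannot be told apart.

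Among the fits that left out 1 array, Ccn3 passed in 1. Without Htt siRNA replicate 2, which had the lowest Ccn3 of its group, the log2 difference was 1.41 and the adjusted p in limma 0.0193; in that fit 0.528% of all genes were called higher, 1.91% lower and 2.43% in either direction. Without each of the other arrays in turn the adjusted p in limma lay above the threshold while the log2 difference stayed between 1.07 and 1.39. Scramble replicate 2, the array with the lowest Ccn3 of all, moved the size most, and leaving it out gave 1.07.

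**Figure D1:**
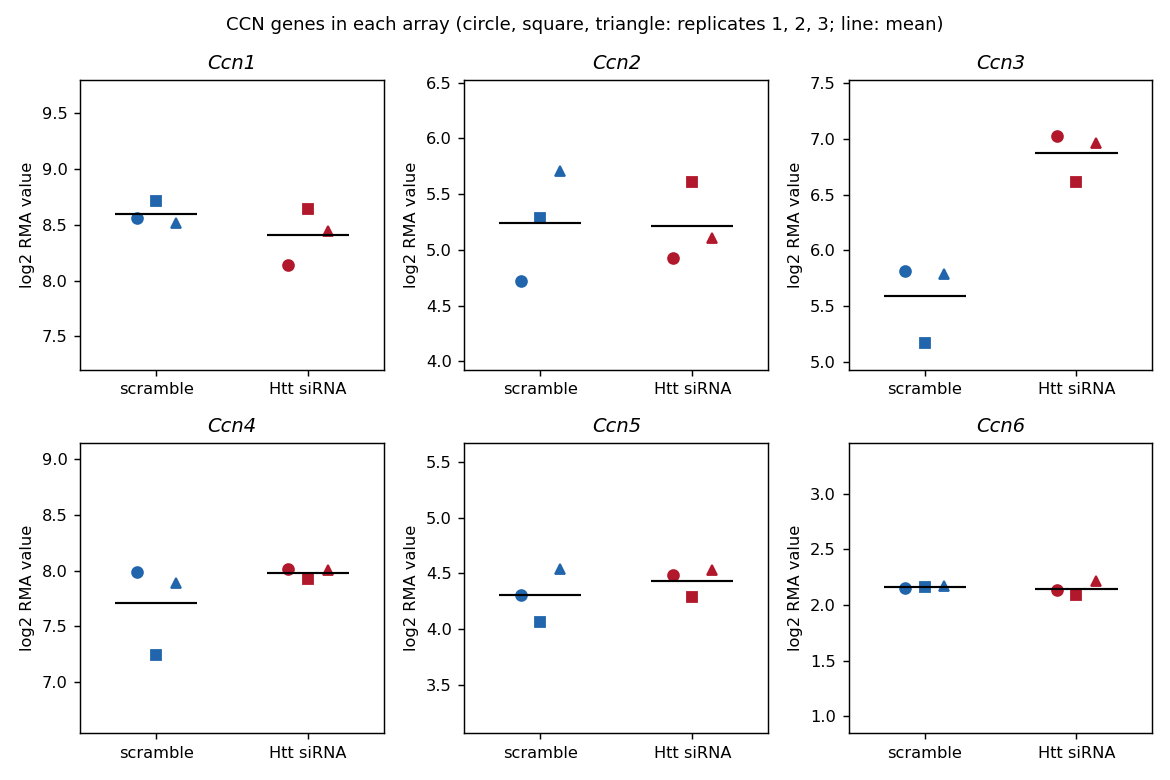
Log2 RMA values (vertical axes) of the 6 CCN genes in the 3 scramble arrays (blue) and 3 Htt siRNA arrays (red); circles, squares and triangles are replicates 1, 2 and 3, black lines are group means, and all panels span the same height. The groups are apart for Ccn3, at 5.17 to 5.82 against 6.61 to 7.03, and overlap for the other members.

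Ccn1 and Ccn2, the members used as reporters of YAP and TEAD activity, had small differences with overlapping groups. Ccn1, which promotes adhesion and migration of cells, read 8.14, 8.64 and 8.44 with Htt siRNA and 8.56, 8.71 and 8.52 with scramble. Htt siRNA replicate 1 was the lowest array, while replicate 2 lay within the scramble range. The log2 difference was -0.19 ± 0.14, with an adjusted p of 0.647 in limma and a 95% confidence interval of 70.4 to 109% of the scramble level.

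The 250 bases before the annotated start of Ccn1 are shown because they hold a copy of the core letters of the TEAD motif, GGAATG, which bears on its use as a YAP reporter (RefSeq, GRCm38.p6, chr3:145649986-145650235, minus strand). Of the 6 members, 2 had an entry in the RefSeq promoter table, Ccn1 and Ccn6. The same window of Ccn6 held no copy of GGAATG on either strand, and its promoter is not shown. The capitals mark the motif, which lies on the opposite strand and so reads in reverse complement.

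Ccn1: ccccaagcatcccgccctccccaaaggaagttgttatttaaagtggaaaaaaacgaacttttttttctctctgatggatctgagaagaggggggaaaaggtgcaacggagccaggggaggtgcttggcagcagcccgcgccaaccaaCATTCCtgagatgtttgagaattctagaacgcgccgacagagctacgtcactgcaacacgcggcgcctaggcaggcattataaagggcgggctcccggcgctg

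The match spans 103 to 98 bases before the start. GGAATG on either strand was found in 12.6% of 32851 promoters of this length. Of 18 genes of the YAP and TEAD target list that had an entry, 6 held it in any of their promoters. The first share counts promoters and the second counts genes, so they are not alike in measure. The SMAD letters CAGACA, on either strand, and the CArG box, the site of serum response factor, were not found in this window of Ccn1; they occurred in 17.1% and 1.47% of all promoters. A match of letters is a description and not evidence of binding.

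Ccn2, a mediator of fibrosis downstream of TGF-beta, read 4.93, 5.61 and 5.10 with Htt siRNA and 4.72, 5.29 and 5.71 with scramble. Its highest and its lowest value were both scramble arrays. The log2 difference was -0.03 ± 0.26, with an adjusted p of 0.980 in limma and a 95% confidence interval from 64.3 to 150% of the scramble level. These arrays therefore do not tell a difference within that interval apart from none. A further probe set annotated to Ccn2 had a mean of 2.52, under the median of all gene means, and a log2 difference of 0.31 ± 0.15 (adjusted p = 0.596 in limma over all probe sets), so the sign of the Ccn2 difference depended on the probe set.

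Ccn2 varied more within the groups than between them, and its variation ran opposite to that of the stress genes. The level of 24 measured genes of the unfolded protein and integrated stress response, relative to the mean of the 6 arrays, was 0.70, -1.04 and 0.72 with Htt siRNA and 0.80, -0.76 and -0.42 with scramble. Ccn2 on the same scale was -0.30, 0.38 and -0.12 in the Htt siRNA arrays and -0.50, 0.06 and 0.48 in the scramble arrays. It was thus below its mean in each of the 3 arrays where the stress genes were above theirs, and above it in the other 3. The part of the stress genes in the Ccn2 values was not tested.

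Ccn4, Ccn5 and Ccn6, the former Wisp genes, also had overlapping groups. Ccn4 read 8.02, 7.92 and 8.00 with Htt siRNA and 7.98, 7.25 and 7.89 with scramble. A single array, scramble replicate 2, stood low and the other 5 lay close together. The log2 difference of Ccn4 was 0.27 ± 0.18 (adjusted p = 0.628 in limma), 0.04 without that array and 0.41 without scramble replicate 1.

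Ccn5, the member without the C-terminal domain, read 4.49, 4.29 and 4.53 with Htt siRNA and 4.31, 4.06 and 4.54 with scramble. Scramble replicate 2 was again the lowest array, and the highest was also a scramble array. The log2 difference of Ccn5 was 0.13 ± 0.14 (adjusted p = 0.761 in limma; 95% confidence interval 88.0 to 136% of the scramble level), and 0.01 without scramble replicate 2. Ccn6 stayed between 2.09 and 2.21 in all 6 arrays, under the median of all gene means, and its log2 difference was -0.01 ± 0.08 (adjusted p = 0.962 in limma). RMA compresses signals this weak, so the narrow spread of Ccn6 does not bound a change in its RNA.

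**Figure D2:**
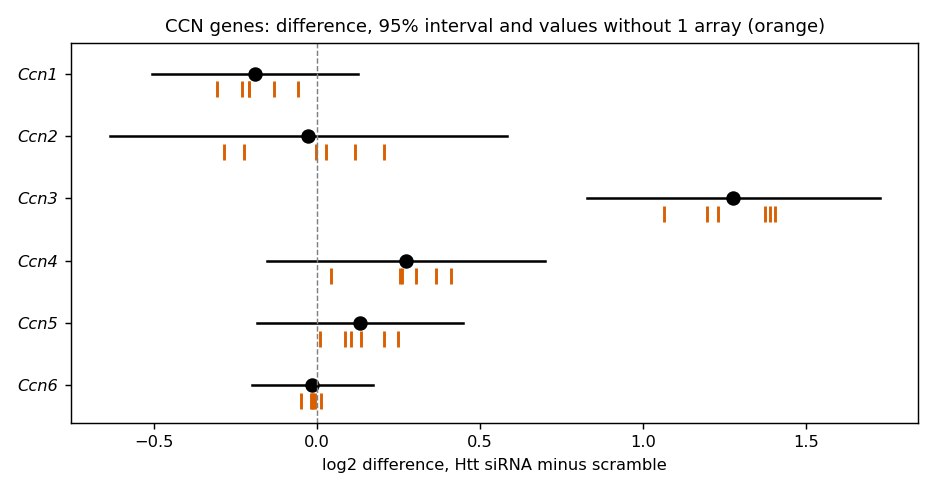
Log2 difference of each CCN gene, Htt siRNA minus scramble (horizontal axis): black points are the limma estimates from all 6 arrays, black lines their 95% confidence intervals, and orange ticks the 6 values with 1 array left out. The interval of Ccn3, 0.83 to 1.73, lies above 0, and those of the other 5 members hold 0.

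Across the family, 0 of 6 members passed the adjusted threshold in limma, against 0.0% of all genes, and 1 of 6 (Ccn3) had an unadjusted p under 0.05, against 10.9%. The groups did not overlap in 1 of 6, against 16.0% of all genes (10.1% higher and 5.91% lower), so the family's count was near the background. The difference reached a factor of at least 2 towards higher values in 1 of 6, against 0.144%. The members split evenly by sign, 3 higher and 3 lower, and their median log2 difference was 0.06 beside 0.03 for all genes; that median was 0.23 without scramble replicate 3, 0.11 without Htt siRNA replicate 1 or 2 and 0.0043 without scramble replicate 2. The SD over the 6 arrays placed Ccn3 at the 99.3rd percentile of all genes, Ccn2 at the 95.2nd, Ccn4 at the 90.6th, Ccn1 at the 73.3rd, Ccn5 at the 68.6th and Ccn6 at the 1.27th.

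The 3 members above the 90th percentile of SD differed in which genes followed them over the 6 arrays. Likeness was measured as the root mean square difference between log2 values after each gene's own mean was subtracted, among the 11090 genes above the median of all gene means, and is a description over 6 arrays that share their labelling and normalization. Nearest to Ccn3 were the carbonic anhydrase gene Car3 (0.10), the membrane protein gene Tmem182 (0.10) and the troponin C gene Tnnc2 (0.14). Their log2 differences were 1.18 ± 0.19, 1.17 ± 0.19 and 1.26 ± 0.26, with adjusted p of 0.169, 0.169 and 0.261 in limma. These genes were chosen by likeness to Ccn3 over the same arrays, with the difference between the groups left in. Values near those of Ccn3 therefore follow from the choice and are not separate evidence. Nearest to Ccn2 were the transcription factor gene Runx1 (0.06), the G protein-coupled estrogen receptor gene Gper1 (0.12) and the cyclin G2 gene Ccng2 (0.12). For Ccn4 the nearest were Micu2 (0.05), Mturn (0.06) and Gnao1 (0.06).

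The mean level of the 10 measured myoblast and muscle markers moved with Ccn3. Relative to the 6 arrays, that mean was 0.43, 0.15 and 0.47 with Htt siRNA and -0.30, -0.57 and -0.17 with scramble. Ccn3 on that scale stood at 0.80, 0.38 and 0.73 with Htt siRNA and at -0.41, -1.06 and -0.44 with scramble. In both, Htt siRNA replicate 2 was the lowest of its group and scramble replicate 2 the lowest of all. The largest marker differences were those of Myog (2.68 ± 0.44) and Mymk (2.11 ± 0.33). The groups overlapped for Pax7 (-0.07 ± 0.16), Chrna1 (0.11 ± 0.10), Vcam1 (0.12 ± 0.09) and Myf5 (0.40 ± 0.35). Of the 10 measured markers, 6 had groups that did not overlap, all higher with Htt siRNA, against 10.1% of all genes higher without overlap, and 0 passed limma's adjusted threshold. Mitosis genes ran the other way at -0.85, 0.31 and -0.54 with Htt siRNA and 0.11, 0.57 and 0.39 with scramble. The part of either in the Ccn3 difference was not tested.

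**Figure D3:**
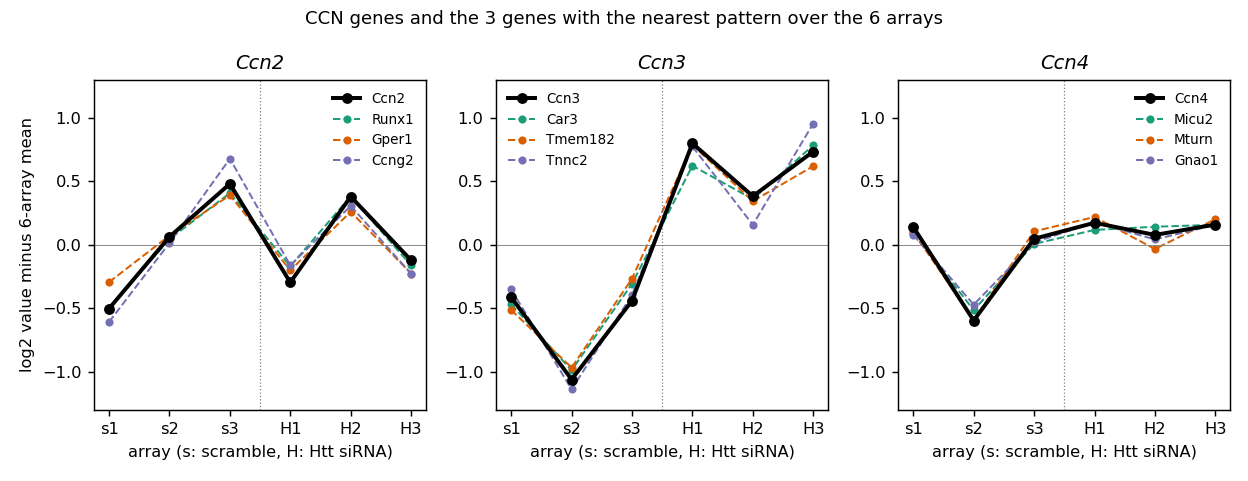
Log2 value minus the gene's 6-array mean (vertical axis) in scramble arrays s1 to s3 and Htt siRNA arrays H1 to H3 for Ccn2, Ccn3 and Ccn4 (black) and the 3 genes nearest to each (dashed colours); lines only join the points of a gene. Ccn3 runs from -1.06 in s2 to 0.80 in H1 with a step between the groups, Ccn2 varies within both groups, and Ccn4 dips in s2 alone.

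The genes around the family were described by 9 lists, whose medians are log2 differences. The lists held 184 measured genes in all, some of them in more than 1 list. In limma, 0 of the 184 passed after adjustment. Before adjustment, p was below 0.05 for 43 of them (25 higher and 18 lower) and for 10.9% of all genes. These shares are not matched for level, and RMA compresses weak signals. Of the 184 genes, 165 lay above the median of all gene means, as did 11090 of all 22180. The same limit applies to the shares of all genes given beside each list. The lists were also chosen with earlier results of these data known, so the count of 43 is a description and not a test of enrichment. Without Htt siRNA replicate 2, 15 of the 184 were called (5 higher and 10 lower), where 2.43% of all genes were. With any other single array left out, 0 of the 184 were called, where at most 0.0045% of all genes were.

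Receptors and binding partners of CCN proteins were measured for 21 of 22 genes. Of these, 4 were higher and 1 lower at an unadjusted p under 0.05, where all genes gave 5.72% and 5.14%, and the list median was 0.07 (0.0017 to 0.12 with single arrays left out). The largest differences were those of Dcn, the proteoglycan decorin that binds Ccn2 (1.69 ± 0.30, adjusted p = 0.184 in limma; 1.96 and 0.0166 without Htt siRNA replicate 2), Bmp4, a growth factor (0.44 ± 0.21; 0.24 without Htt siRNA replicate 1), the integrin subunit gene Itgb5 (0.41 ± 0.13) and the proteoglycan gene Hspg2 (0.34 ± 0.14). Decorin read 7.74, 6.67 and 7.25 with Htt siRNA against 5.96, 5.05 and 5.59 with scramble, without overlap.

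Some receptors were chosen for their role after their values were seen. Notch1, the partner of Ccn3, had a log2 difference of -0.24 ± 0.25 (adjusted p = 0.757 in limma), with 4.94, 5.35 and 4.72 against 4.77, 5.26 and 5.70. Its groups overlapped. The integrin subunits that bind CCN proteins gave -0.27 ± 0.11 for Itga6, 0.17 ± 0.09 for Itga5, 0.15 ± 0.09 for Itgb1 and 0.09 ± 0.11 for Itgb3, and the co-receptor syndecan 4 (Sdc4) gave -0.14 ± 0.19, all without passing the threshold.

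Hippo pathway genes and TEAD factors, which control YAP and TAZ, had 2 of 27 measured members higher and 0 lower at an unadjusted p under 0.05 (5.72% and 5.14% of all genes), with a median of -0.02 (-0.048 to 0.0032 with single arrays left out). Those with the largest differences were Vgll3, a TEAD cofactor (0.65 ± 0.17), and the angiomotin family genes Amot (-0.51 ± 0.25), Amotl2 (0.36 ± 0.10) and Amotl1 (0.28 ± 0.18). Adjusted p in limma ran from 0.329 to 0.606. Amot gave -0.30 without scramble replicate 3, and Amotl1 0.14 without scramble replicate 2 and 0.46 without Htt siRNA replicate 2. Yap1 itself gave -0.04 ± 0.11 and Wwtr1, which encodes TAZ, 0.16 ± 0.09, both chosen after their values were seen.

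Among 23 measured YAP and TEAD targets outside the family, 3 were higher and 2 lower at an unadjusted p under 0.05 (5.72% and 5.14% of all genes), and the median was 0.12, or 0.03 without scramble replicate 1. The largest differences were in Ccdc80, a matrix protein gene (0.67 ± 0.25), Anln, the cytokinesis protein anillin (-0.64 ± 0.27; -0.99 with an adjusted p of 0.0108 in limma without Htt siRNA replicate 2), F3, tissue factor (0.59 ± 0.28), and Tgfb2 (0.39 ± 0.10). Without scramble replicate 2, Ccdc80 gave 0.36 and F3 0.30, and without Htt siRNA replicate 1 Anln gave -0.41. Ankrd1, a standard YAP reporter chosen after its value was seen, gave 0.03 ± 0.08 and stayed between 10.47 and 10.64 in all 6 arrays.

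TGF-beta ligands, receptors and SMADs, which lie upstream of Ccn2, had 2 of 19 higher and 3 lower at an unadjusted p under 0.05 (5.72% and 5.14% of all genes), with a median of 0.03. Smad7, the inhibitory SMAD, was at 4.36, 4.32 and 4.19 with Htt siRNA and 4.82, 4.85 and 4.75 with scramble, without overlap. Its log2 difference was -0.52 ± 0.09 (adjusted p = 0.174 in limma; 0.0465 without Htt siRNA replicate 2). The ligand Tgfb2 gave 0.39 ± 0.10, the receptor Tgfbr2 0.36 ± 0.14 and the latent TGF-beta binding protein Ltbp2 -0.48 ± 0.18 (-0.31 without Htt siRNA replicate 1).

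TGF-beta targets outside the family had 6 of 19 higher and 3 lower at an unadjusted p under 0.05 (5.72% and 5.14% of all genes), with a median of 0.03. The higher ones included the collagen gene Col1a1 (1.17 ± 0.23), the matricellular protein periostin (Postn, 1.04 ± 0.28) and the actin-binding transgelin (Tagln, 0.61 ± 0.13). Their adjusted p ran from 0.236 to 0.334 in limma. Towards lower values, the same list held Smad7 (-0.52 ± 0.09, adjusted p = 0.174 in limma), Ltbp2 (-0.48 ± 0.18) and Timp1 (-0.41, named after its value was seen). Without Htt siRNA replicate 2 Col1a1 gave 1.37 with an adjusted p of 0.0239 in limma. With each of the other arrays left out in turn Col1a1 did not pass, and it gave 1.01 without scramble replicate 2. Without scramble replicate 2 the median of these targets was -0.04 and that of the ligands, receptors and SMADs was -0.05.

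Serum response factor and its cofactors MRTF also act on Ccn1 and Ccn2. Of 23 measured targets, 8 were higher and 0 lower at an unadjusted p under 0.05 (5.72% and 5.14% of all genes), 21 of 23 had positive differences (58.2% of all genes), and the median was 0.17 (0.11 without scramble replicate 2). Myl9, a regulatory myosin light chain, read 7.04, 7.06 and 6.91 with Htt siRNA against 6.01, 5.68 and 6.18 with scramble. Its log2 difference was 1.05 ± 0.13 (adjusted p = 0.124 in limma; 0.0250 without Htt siRNA replicate 2), and further large values were those of Tagln, the smooth muscle actin gene Actg2 (0.60 ± 0.11; adjusted p = 0.0465 in limma without Htt siRNA replicate 2) and the tropomyosin gene Tpm2 (0.54 ± 0.14). Several of these genes are also part of the muscle programme.

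Immediate early genes, a class to which Ccn1 belongs because serum induces it within a short time, had more negative than positive differences. Of 27 measured, 0 were higher and 7 lower at an unadjusted p under 0.05 (5.72% and 5.14% of all genes), 20 of 27 had negative differences (41.8% of all genes) and the median was -0.19. That median was -0.088 when scramble replicate 1 was left out and -0.096 when Htt siRNA replicate 1 was, where Ccn1 itself gave -0.058. The largest were the growth factor gene Hbegf (-0.88 ± 0.32), the ERK phosphatases Dusp6 (-0.87 ± 0.40) and Dusp5 (-0.64 ± 0.16) and the stress-inducible Ier3 (-0.71 ± 0.17), with adjusted p from 0.299 to 0.482 in limma. The groups overlapped for Hbegf and Dusp6 and not for Dusp5 and Ier3. Without Htt siRNA replicate 1 Dusp6 gave -0.56. Without Htt siRNA replicate 2, Hbegf, Dusp6, Dusp5 and Ier3 did not pass (adjusted p from 0.0904 to 0.145 in limma). In that fit 3 other members of the list passed, named after their values were seen. They were the transcription factor genes Egr1 (-0.91, adjusted p = 0.0250 in limma) and Egr3 (-0.58, adjusted p = 0.0469) and the phosphatase gene Dusp4 (-0.77, adjusted p = 0.0453). With all arrays the groups overlapped for Egr1.

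Wnt and beta-catenin genes, the setting in which Ccn4 was found, had 3 of 25 higher and 2 lower at an unadjusted p under 0.05 (5.72% and 5.14% of all genes) and a median of 0.07 (0.034 to 0.13 with single arrays left out). The secreted Wnt inhibitor Dkk2 gave -1.28 ± 0.40 and the membrane inhibitor Apcdd1 -0.73 ± 0.10. Their adjusted p were 0.384 and 0.163 in limma, and 0.0319 and 0.0298 without Htt siRNA replicate 2. The groups overlapped for Dkk2, which gave -0.96 without Htt siRNA replicate 3. The cytoplasmic inhibitor Nkd2 gave 0.40 ± 0.14 and the receptor Fzd1 0.27 ± 0.14, or 0.27 and 0.14 without Htt siRNA replicate 2.

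Other secreted matricellular proteins had 2 of 17 higher and 2 lower at an unadjusted p under 0.05 (5.72% and 5.14% of all genes), with a median of 0.10 (0.047 to 0.17 with single arrays left out). Beside periostin, the fibulin gene Fbln5 gave 0.83 ± 0.24, Fbln1 -0.41 ± 0.12 and the thrombospondin gene Thbs2 -0.43 ± 0.18. The groups overlapped for Fbln5 and Thbs2. Without Htt siRNA replicate 2 these last 3 genes had adjusted p of 0.0405, 0.0473 and 0.0269 in limma. Without Htt siRNA replicate 1 they gave 0.62, -0.30 and -0.31, with adjusted p from 0.627 to 0.710 in limma.

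**Figure D4:**
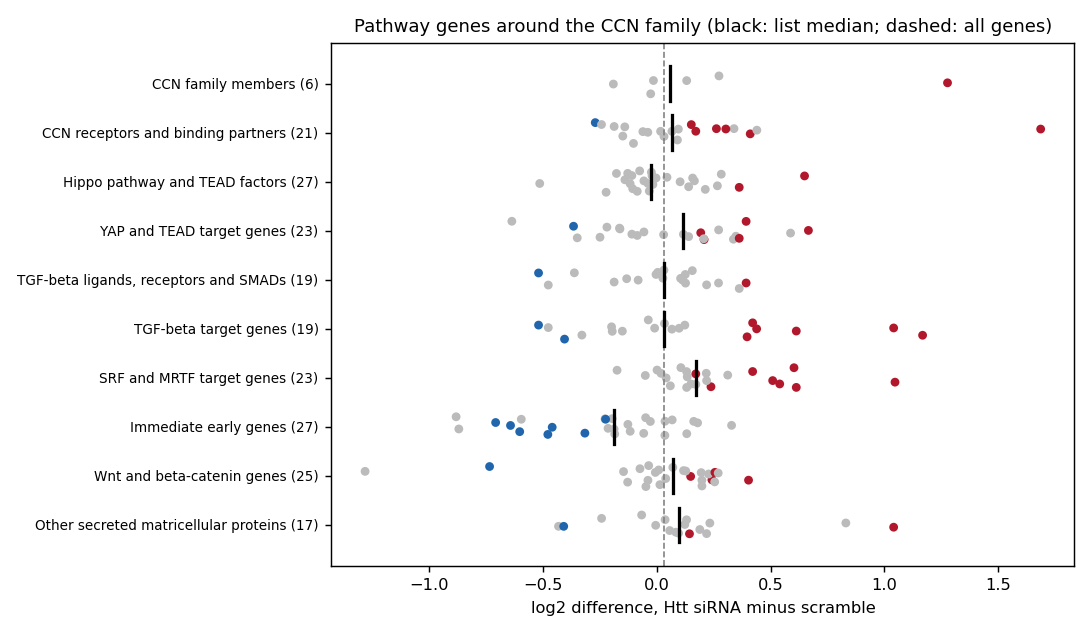
Log2 difference, Htt siRNA minus scramble (horizontal axis), of each measured gene of the CCN family and of the 9 lists around it, with the number of genes in brackets; red and blue points have groups that do not overlap (higher and lower with Htt siRNA), grey points overlap, black bars are list medians and the dashed line is the median of all genes, 0.03. The immediate early list has its median at -0.19, the SRF and MRTF targets at 0.17, and Ccn3 stands apart from the other CCN genes at 1.28.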

How the data were processed

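The authors deposited 1 table of log2 values for 41345 probe sets on 6 arrays; the submitters' processing notes name RMA and affy, without versions. No source used here gives the array type, the build or detection calls. The platform annotation gave 1 gene symbol for 23521 probe sets and several for 1814, and left 16010 unnamed; 23328 of the first were found by Entrez identifier in RefSeq's GRCm38.p6 table. The brightest probe set stood for each of 22180 genes (1082 had several). Groups were compared with limma 3.58.1 in R 4.3.3 (lmFit and eBayes, group as the only term, two-sided, Benjamini-Hochberg over all genes, threshold 0.05), tested on simulated data. The simulated noise was independent between genes and arrays, so that test does not cover shifts shared by many genes of an array. The number of arrays limits the precision. Python 3.11.15, pandas 2.3.3 and matplotlib 3.10.9 made the tables and plots.

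The members and gene lists were chosen with earlier results of these data known. Named genes are the members, Htt, up to 4 genes per list (those past the threshold, otherwise the largest differences above the median level) and the 3 nearest patterns; others are marked. Each array left out in turn, a replicate block, centring, repeated quantile normalization, a filter on dim genes, array weights, an intensity trend, averaged probe sets and adjustment over all probe sets were alternatives.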

Additional observations from a re-analysis of the deposited data

How the results depend on the processing

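Over 14 alternatives, the log2 difference of Ccn3 lay between 1.07 and 1.41 and its adjusted p in limma between 0.0110 and 0.619; leaving out single arrays gave 1.07 to 1.41. Ccn1 stayed negative (-0.31 to -0.06), and Ccn4 (0.04 to 0.41) and Ccn5 (0.01 to 0.25) positive. Ccn6 has no value in the fit of genes above the median level. The number of CCN genes called was 0 or 1 when single arrays were left out, and that of pathway genes 0 to 15. Htt lay between -1.16 and -1.04 and passed with array weights (-1.11), centred arrays (-1.13), genes above the median level (-1.10), repeated quantile normalization (-1.04) the replicate block (-1.10) and without Htt siRNA replicate 2 (-1.07, adjusted p = 0.00778 in limma); without single arrays it ranged from -1.16 to -1.06. Deviations of arrays with the same replicate number correlated at 0.35, 0.36 and 0.0064. Those of arrays with different numbers correlated at -0.43 to 0.22. The labels do not say whether the numbers pair the arrays, and these values do not settle it. With the replicate number as a block, 98 genes were called, among them 1 CCN gene, Ccn3 (1.28, adjusted p = 0.0110 in limma), and 7 pathway genes. Signs turned for values near 0: Ccn2 was 0.14 with averaged probe sets and 0.025 with repeated quantile normalization, Runx1 -0.11 with array weights, Yap1 0.062 with averaged probe sets and 0.0095 with repeated quantile normalization, and Ankrd1 -0.0011 with centred arrays. Leaving out single arrays gave -0.28 to 0.21 for Ccn2, -0.049 to 0.013 for Ccn6, -0.21 to 0.24 for Runx1, -0.29 to 0.055 for Gper1, -0.37 to 0.27 for Ccng2, -0.13 to 0.029 for Yap1 and -0.013 to 0.072 for Ankrd1. The cause of these turns was not tested. Weak signals, such as Ccn6, limit what the arrays can show.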
